A study of Mus musculus with 6 samples.

Results

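The scavenger receptors examined here were the 8 genes Msr1, Marco, Scarb1, Scarb2, Olr1, Stab1, Cd5l and Cd68, taken by gene name from a raw count table of 54532 genes. All 8 were in the table, and all 8 had counts high enough to be tested. The counts came from RNA sequencing of abdominal aorta of Olfr2 knockout (KO) mice and of wild type (WT) mice, all taken at day 7 after an aneurysm was induced, with 3 libraries per genotype. Olfr2 codes for an odorant receptor that signals through G proteins. An aneurysm is a bulge of a weakened artery. The sources used here do not give the way the aneurysm was induced, the strain, age and sex of the mice, the kind of Olfr2 allele or whether animals were pooled. The p-values below therefore rest on the spread among libraries, which may be technical in part. The labels name no group without an aneurysm, so KO and WT share the induction and the day.

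Scavenger receptors are a family of cell surface and lysosomal proteins defined by what they bind. Their ligands include oxidised and acetylated lipoproteins, bacterial surface molecules and dying cells. In the artery wall they are known for lipoprotein uptake by macrophages, which can become lipid-filled foam cells. The family is divided into structural classes that share ligands more than they share sequence. The comparison of KO with WT asks whether transcripts of this uptake machinery differ in aneurysm tissue that lacks Olfr2.

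The libraries held 17248918 to 21872027 gene counts in KO and 17388340 to 17987404 in WT. Olfr2 itself had 0 counts in all 6 libraries, which allows up to 0.137 to 0.174 CPM in KO and 0.167 to 0.173 CPM in WT (CPM scales counts to library size, and a count of 0 allows 3 counts), so it does not check the genotype labels. Markers of the vessel wall were present in every library, with 1581 to 2488 CPM over 6 smooth muscle markers in KO and 921 to 1390.2 CPM in WT, and 454 to 600.3 CPM over 5 endothelial markers in KO and 435 to 638 CPM in WT. The summed level of 15 macrophage markers was 6135 to 7779 CPM in KO and 6890 to 9778 CPM in WT. KO replicate 3 stood apart with 817 CPM over 5 skeletal muscle markers, against 3.63 and 4.48 CPM in the other KO libraries and 3.11 to 13.9 CPM in WT. The sum of 7 white adipocyte markers was 781 to 1480.5 CPM in KO and 185 to 721 CPM in WT, and that of 6 T cell markers was 106 to 111 CPM in KO and 155 to 195 CPM in WT. That of 5 NK cell markers was 69.1 to 101 CPM in KO and 141 to 219 CPM in WT, and that of 5 dendritic cell markers was 87.3 to 122 CPM in KO and 149.8 to 197 CPM in WT. DESeq2, which called 2.92% of the genes it gave an adjusted p, called all 5 NK cell markers lower in KO. It also called 4 of 6 T cell, 2 of 5 dendritic cell and 2 of 6 monocyte markers lower. Of 6 smooth muscle markers it called 5 higher in KO, and of 7 white adipocyte markers 1. Of all these markers edgeR called 0. The smooth muscle marker that DESeq2 did not call was Tagln. Of its exon bases 67.9% overlap other genes, and of those of Smtn, which was called, 16.3%, so reads there cannot be assigned. The sums of 4 B cell and 5 fibroblast markers overlapped between genotypes. That of 6 monocyte markers was 1042 to 1407 CPM in KO and 1323 to 2301 CPM in WT, and that of 7 neutrophil markers was 616 to 854 CPM in KO and 607 to 679 CPM in WT. The share of mitochondrial transcripts was 5.32% in KO replicate 1 and at most 2.59% in the other KO libraries, against 1.56 to 1.88% in WT. KO replicate 1 thus stood apart in this share, and its adipocyte and smooth muscle sums were the highest of the 6 libraries. In bulk tissue fewer cells of a type and less RNA per cell cannot be told apart. The part of these differences in the results below was not tested. A value given without a library leaves out everything about that library, so it does not separate these differences from others.

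Of the 8 scavenger receptors, Cd5l stood higher in every KO library than in any WT library, with a mean 4.88 times as high. Marco had a mean 2.33 times as high in KO, but its libraries overlapped. The other 6 (Msr1, Scarb1, Scarb2, Olr1, Stab1 and Cd68) had KO means of 0.82 to 1.01 times the WT means and overlapped. None of the 8 passed the test over all genes (edgeR's quasi-likelihood test, Benjamini-Hochberg adjusted p under 0.05, 16237 genes), where 2 genes, or 0.0123%, passed. With DESeq2, which called 2.92% of the genes it gave an adjusted p, and with limma-voom, which called 0 genes, 0 of the 8 passed as well. At an unadjusted p under 0.05 there was 1 of the 8, Cd5l, where 11.3% of all tested genes had such a p. Without overlap between KO and WT there was also 1 of the 8, against 16.8% of all tested genes and 7.83% with all KO libraries above all WT libraries, so the members' count was near the background. The median log2 fold change of the 8 was -0.06, and that of all tested genes was 0.01.

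**Figure D1:**
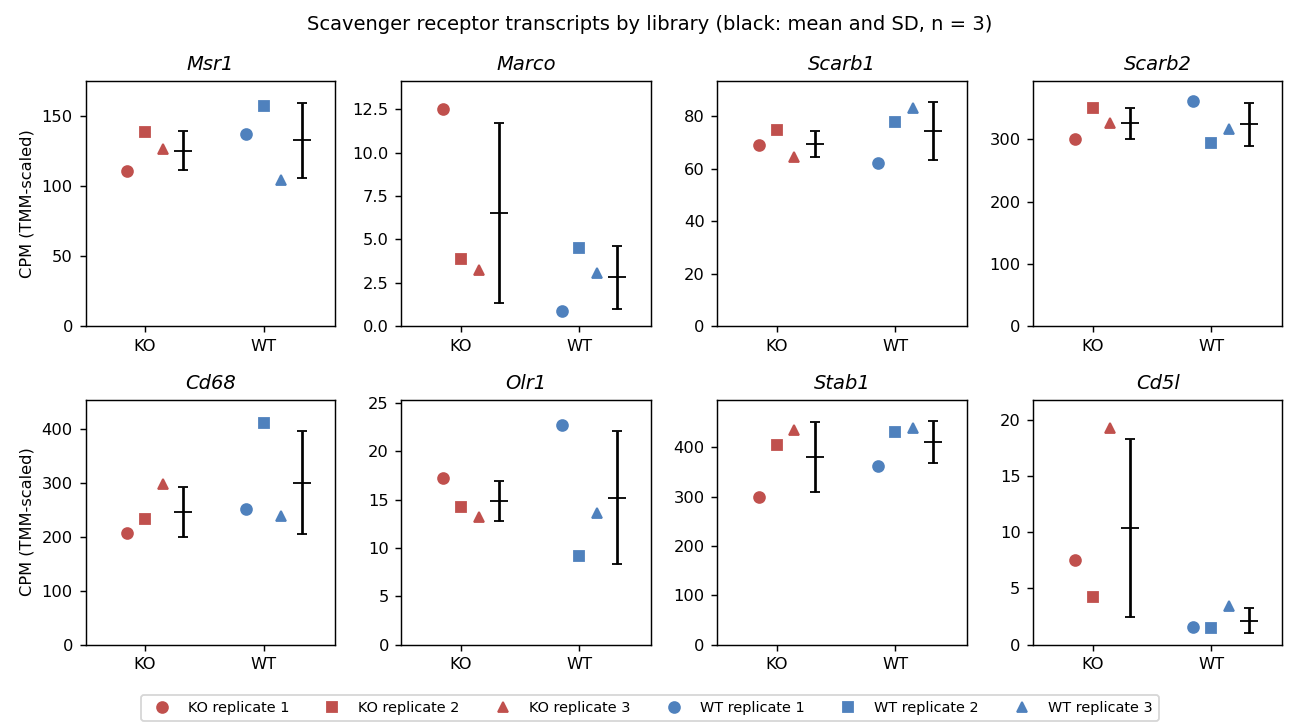
Level of each scavenger receptor transcript in CPM (TMM-scaled library sizes) in each of the 3 KO libraries (red) and 3 WT libraries (blue), with the mean and SD in black. Cd5l is the panel in which the groups do not overlap, with 4.19 CPM in the lowest KO library and 3.40 CPM in the highest WT library.

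Cd5l encodes a secreted protein of the scavenger receptor cysteine-rich family, also called AIM (apoptosis inhibitor of macrophages), which is made by tissue macrophages and is a target of the liver X receptors, sterol-sensing nuclear receptors. The gene (ENSMUSG00000015854) lies on chromosome 3, 87357881 to 87371073, plus strand, GRCm38, and is protein-coding. It stood at 7.57, 4.19 and 19.3 CPM in KO replicates 1 to 3, against 1.52, 1.46 and 3.40 CPM in WT replicates 1 to 3. KO replicate 3 was the highest of the 6 libraries, and KO replicate 2 lay closest to the WT libraries. These levels rest on 132, 82 and 414 counts in KO and 28, 24 and 59 counts in WT. Counting error alone gave KO replicate 2 a 95% Poisson interval of 3.34 to 5.21 CPM and WT replicate 3 one of 2.59 to 4.38 CPM, so the intervals of these neighbouring libraries of different genotype overlapped.

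The mean of Cd5l came to 10.4 ± 7.93 CPM over the KO libraries and 2.12 ± 1.10 CPM over the WT libraries (SD, n = 3 each). The log2 fold change was 2.29 (SE 0.57), with a 95% interval of 0.997 to 3.57, and edgeR's adjusted p was 0.174. DESeq2 gave an adjusted p of 0.0657 for Cd5l. When genes with low counts were not filtered out, edgeR's adjusted p for Cd5l was 0.000197 at the same log2 fold change, and 644 genes were called in all, so the call turned on that filter. Without KO replicate 3, the library with skeletal muscle transcripts, the log2 fold change was 1.46 (SE 0.44). Of all tested genes, 0.259% had a larger absolute log2 fold change than Cd5l. By edgeR's p-value, which takes the spread among libraries into account, Cd5l held rank 286 of the 16237 tested genes.

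The promoters of Cd5l and Marco are shown because these members had the highest fold changes, and that of Cd68 because it had the highest level per exon length. Each runs from 250 bases before to 50 after the gene start, in the direction of the gene, from RefSeq on GRCm38.p6. Capitals mark GAGGAA, the core of the element bound by PU.1, a transcription factor of macrophages, and TGANTCA, the element bound by AP-1, each searched on both strands. Cd5l lies at chr3:87357631-87357930 (plus strand), Marco at chr1:120504975-120505274 (minus strand) and Cd68 at chr11:69666121-69666420 (minus strand).
Cd5l: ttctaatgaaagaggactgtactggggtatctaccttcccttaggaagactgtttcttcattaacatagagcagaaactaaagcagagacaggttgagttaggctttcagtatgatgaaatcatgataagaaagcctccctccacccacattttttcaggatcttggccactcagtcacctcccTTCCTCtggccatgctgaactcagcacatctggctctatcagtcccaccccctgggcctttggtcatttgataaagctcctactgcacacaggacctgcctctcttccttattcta
Marco: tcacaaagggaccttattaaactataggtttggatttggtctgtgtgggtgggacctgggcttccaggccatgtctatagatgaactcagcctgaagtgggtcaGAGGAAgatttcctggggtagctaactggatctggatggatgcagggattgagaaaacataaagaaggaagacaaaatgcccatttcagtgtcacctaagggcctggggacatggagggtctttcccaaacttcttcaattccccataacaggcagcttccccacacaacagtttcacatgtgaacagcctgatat
Cd68: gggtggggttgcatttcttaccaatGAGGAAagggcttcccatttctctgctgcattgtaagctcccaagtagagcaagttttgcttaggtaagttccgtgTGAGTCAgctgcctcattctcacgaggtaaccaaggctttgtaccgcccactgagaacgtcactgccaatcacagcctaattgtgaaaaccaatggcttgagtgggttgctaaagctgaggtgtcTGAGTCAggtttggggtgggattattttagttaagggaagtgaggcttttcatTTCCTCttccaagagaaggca
A promoter was found for 6 of the 8 members: Marco, Cd5l, Scarb2, Olr1, Cd68 and Stab1. GAGGAA was in 5 of these 6, where 28.3% of 32851 promoters of the same length hold it, and TGANTCA was in 2, Olr1 and Cd68, where 7.81% hold it. In Cd5l the GAGGAA match was on the strand opposite to the gene, its leftmost printed base at position -66 from the gene start. In Marco it was on the strand of the gene, at position -146. These matches describe the letters of the window and do not show binding.

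Marco and Msr1 belong to the class A scavenger receptors, membrane proteins with a collagen-like stalk that bind bacteria and modified lipoproteins. Marco (ENSMUSG00000026390, chromosome 1, 120474538 to 120505024, minus strand) is known from macrophages of the splenic marginal zone, lymph nodes and lung. It stood at 12.5, 3.89 and 3.22 CPM in KO replicates 1 to 3, against 0.870, 4.49 and 3.05 CPM in WT replicates 1 to 3. KO replicate 1 was far above the rest, WT replicate 1 was far below, and the other 4 libraries lay close together. The mean came to 6.54 ± 5.18 CPM over the KO libraries and 2.80 ± 1.82 CPM over the WT libraries (SD, n = 3 each). The log2 fold change was 1.22 (SE 0.64), with a 95% interval of -0.22 to 2.66 and an adjusted p of 0.526 from edgeR. Without KO replicate 1 it was 0.35 (SE 0.56), so that library carried most of the difference in Marco. KO replicate 1 was also the library with 5.32% mitochondrial transcripts and the highest adipocyte and smooth muscle sums, whose part in the level of Marco was not tested.

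Msr1 (ENSMUSG00000025044, chromosome 8, 39581685 to 39642673, minus strand), also called SR-A, is the classical macrophage receptor for acetylated lipoprotein. It stood at 110.5, 138 and 127 CPM in KO replicates 1 to 3, against 137, 157 and 104 CPM in WT replicates 1 to 3. All 3 KO libraries lay within the range of the WT libraries. The mean came to 125 ± 14.1 CPM over the KO libraries and 133 ± 26.6 CPM over the WT libraries (SD, n = 3 each), and the log2 fold change was -0.08 (SE 0.16; edgeR's adjusted p = 0.913). The 95% interval of the KO to WT ratio ran from 0.732 to 1.22.

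Scarb1 and Scarb2 belong to the class B receptors, which cross the membrane at both ends. Scarb1 (ENSMUSG00000037936, chromosome 5, 125277087 to 125341094, minus strand), or SR-BI, takes up cholesteryl esters from high density lipoprotein. It stood at 69.0, 74.7 and 64.6 CPM in KO replicates 1 to 3, against 62.2, 78.0 and 83.2 CPM in WT replicates 1 to 3. All 3 KO values fell inside the WT range, and the log2 fold change was -0.10 (SE 0.13; edgeR's adjusted p = 0.857). Scarb2 (ENSMUSG00000029426, chromosome 5, 92441314 to 92506833, minus strand), or LIMP-2, sits in the lysosomal membrane. It stood at 300.3, 350.4 and 327 CPM in KO replicates 1 to 3, against 361, 294 and 317 CPM in WT replicates 1 to 3. The KO values again fell inside the WT range, and the log2 fold change was 0.01 (SE 0.13; edgeR's adjusted p = 0.993). The 95% interval of the KO to WT ratio was 0.759 to 1.15 for Scarb1 and 0.824 to 1.23 for Scarb2, and these were the narrowest intervals of the 8 on the log2 scale.

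Cd68 (ENSMUSG00000018774, chromosome 11, 69664213 to 69666153, minus strand) encodes macrosialin, a heavily glycosylated protein of macrophage endosomes and lysosomes that is widely used as a macrophage marker. It stood at 207, 233 and 299 CPM in KO replicates 1 to 3, against 252, 411 and 238 CPM in WT replicates 1 to 3. WT replicate 2 was the highest library, and the other 5 lay between 207 and 299 CPM. The log2 fold change was -0.29 (SE 0.23; edgeR's adjusted p = 0.715), and without WT replicate 2 it was 0.01 (SE 0.17). The 95% interval of the ratio ran from 0.576 to 1.17.

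Olr1 (ENSMUSG00000030162, chromosome 6, 129485244 to 129507165, minus strand) encodes LOX-1, a lectin-like receptor for oxidised low density lipoprotein first described in endothelium. It stood at 17.2, 14.2 and 13.2 CPM in KO replicates 1 to 3, against 22.8, 9.22 and 13.6 CPM in WT replicates 1 to 3. The KO libraries lay between the lowest and the highest WT library. The mean came to 14.9 ± 2.07 CPM over the KO libraries and 15.2 ± 6.91 CPM over the WT libraries (SD, n = 3 each), and the log2 fold change was -0.03 (SE 0.29; edgeR's adjusted p = 0.987). The 95% interval of the ratio was wide, 0.618 to 1.54, and without WT replicate 1 the log2 fold change was 0.38 (SE 0.22).

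Stab1 (ENSMUSG00000042286, chromosome 14, 31139013 to 31168641, minus strand) encodes stabilin-1, a large class H receptor of sinusoidal endothelium and of resident-type macrophages that clears matrix fragments and altered lipoprotein. It stood at 299.9, 405 and 434 CPM in KO replicates 1 to 3, against 362, 430.2 and 439 CPM in WT replicates 1 to 3. KO replicate 1 was the lowest library, and the other KO libraries lay within the WT range. The log2 fold change was -0.11 (SE 0.16; edgeR's adjusted p = 0.879), with a 95% interval of the ratio of 0.717 to 1.20. Of its exon bases 1.09% overlap the gene Nt5dc2, and without a stated strand setting reads there cannot be assigned. The other 7 members had no exon overlap with another gene.

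**Figure D2:**
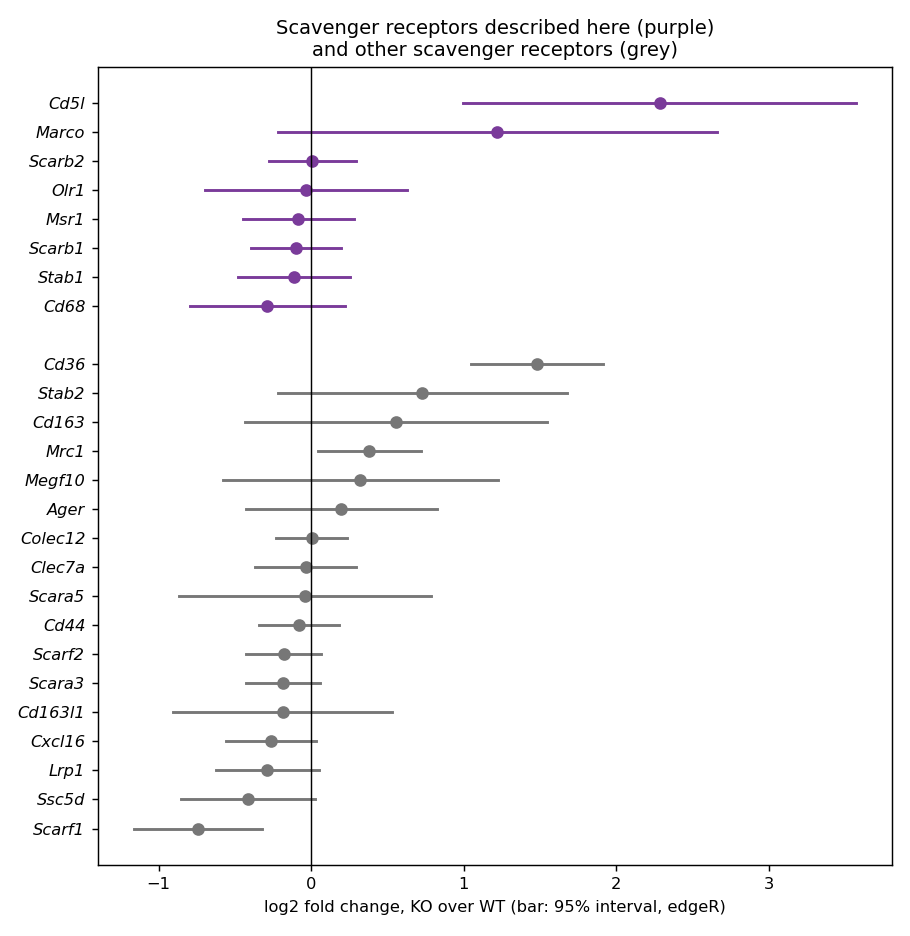
Log2 fold change of KO over WT with its 95% interval from edgeR for the 8 scavenger receptors described here (purple) and 17 other tested scavenger receptors (grey). The intervals of Cd5l, Cd36 and Mrc1 lie above 0 and that of Scarf1 lies below, while those of the other 7 members span 0.

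Levels of different genes were compared as CPM per kilobase of exon. Cd68 was the highest in all 6 libraries, at 196 ± 37.6 in KO and 239 ± 76.4 CPM per kb in WT (SD, n = 3 each). Scarb2 followed at 51.8 ± 3.99 in KO and 51.5 ± 5.44 in WT, then Stab1 at 36.9 ± 6.86 in KO and 39.9 ± 4.09 in WT, and Msr1 at 19.7 ± 2.22 in KO and 20.9 ± 4.195 CPM per kb in WT. These 4 held the same order in every library, and neighbours among them did not overlap within a genotype. Scarb1 came next in the group means, at 8.17 ± 0.598 in KO and 8.76 ± 1.29 CPM per kb in WT.

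Below Scarb1 the order differed between libraries. In KO the means per kb were 5.09 for Cd5l, 4.17 for Olr1 and 3.40 for Marco, and in WT they were 1.04 for Cd5l, 4.26 for Olr1 and 1.46 for Marco. In KO the range of Scarb1 lay above those of Olr1 and Marco, which overlapped, while the range of Cd5l overlapped all of these. In WT the ranges of Scarb1, Olr1 and Marco did not overlap, while those of Marco and Cd5l did. In KO replicate 3, Cd5l at 9.48 CPM per kb was above Scarb1 at 7.60. In WT replicate 3 the same genes were at 1.67 and 9.79.

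**Figure D3:**
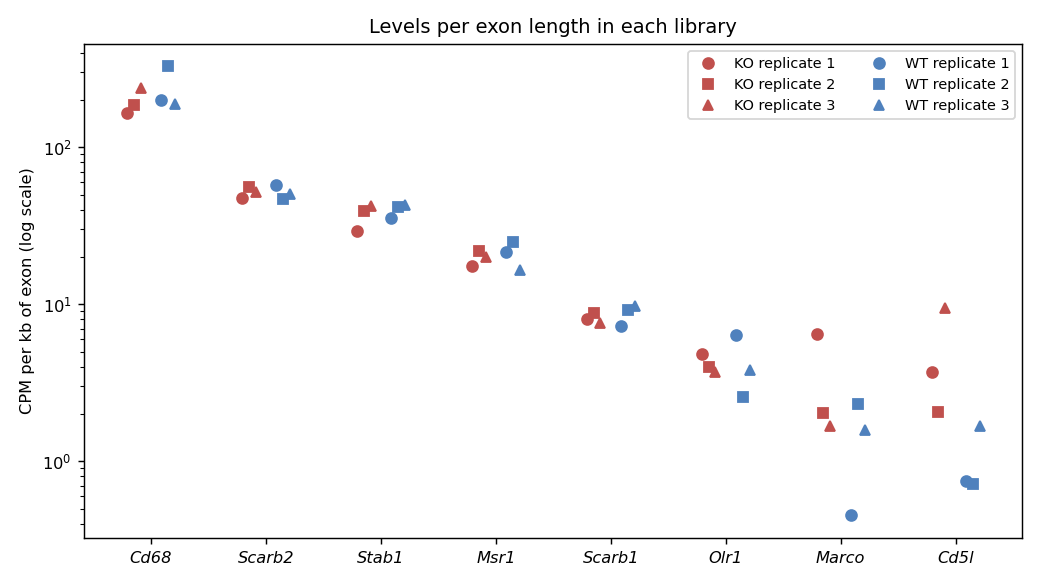
Level of each scavenger receptor in CPM per kb of exon, on a log axis, in the 3 KO libraries (red, left) and 3 WT libraries (blue, right) of each gene. Cd68, Scarb2, Stab1 and Msr1 keep their order in all 6 libraries, and Marco and Cd5l spread most between libraries.

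Because most of these genes are expressed by macrophages, each was also set against the mean log2 CPM of the 15 macrophage markers in the same library, a comparison chosen after the data were seen. Relative to these markers Cd5l stood at -5.30, -6.22 and -4.32 in KO replicates 1 to 3, against -7.68, -8.19 and -6.64 in WT replicates 1 to 3 (log2). All 3 KO values were above all 3 WT values, and the difference was 2.22 (two-sided exact permutation p = 0.1, and 3 against 3 can give no smaller p). The difference was 1.36 for Marco, whose libraries overlapped (exact permutation p = 0.3). For the other 6 it lay between -0.09 for Cd68 and 0.23 for Olr1 and the libraries overlapped, with exact permutation p-values of 0.6 to 1. Of the 15 macrophage markers 0 passed by edgeR, DESeq2 or limma-voom, and 2, Fcgr1 and Aif1, had an unadjusted p under 0.05, both lower in KO, where 6.08% of all tested genes were lower with such a p. The median log2 fold change of the 15 was -0.14. Of the exon bases 68.7% overlap another gene for Itgam and 15.1% for Csf1r, so reads there cannot be assigned. The rest of the 15 markers had no such overlap.

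The effect of each library was examined by leaving it out. Cd5l had a positive log2 fold change in all 6 such fits, between 1.46 without KO replicate 3 and 2.79 without WT replicate 3. Marco did as well, between 0.35 without KO replicate 1 and 1.74 without WT replicate 2. For Cd5l this sign was largely fixed in advance, as all its KO libraries lay above all its WT libraries. With KO replicate 3 and WT replicate 2 both left out, Cd5l was at 1.27 (SE 0.47) and Marco at 2.08 (SE 0.69). In each of these fits 0 of the 8 members passed (edgeR). The genes that passed numbered 155 without WT replicate 3, 0 without KO replicate 1 or WT replicate 1, and 1 to 3 with each of the other libraries left out. At an unadjusted p under 0.05 there was Cd5l in all 7 fits, and also Marco without KO replicate 3, without WT replicate 2 and without both. Such a p was held by 8.28 to 13.1% of all tested genes in these fits.

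**Figure D4:**
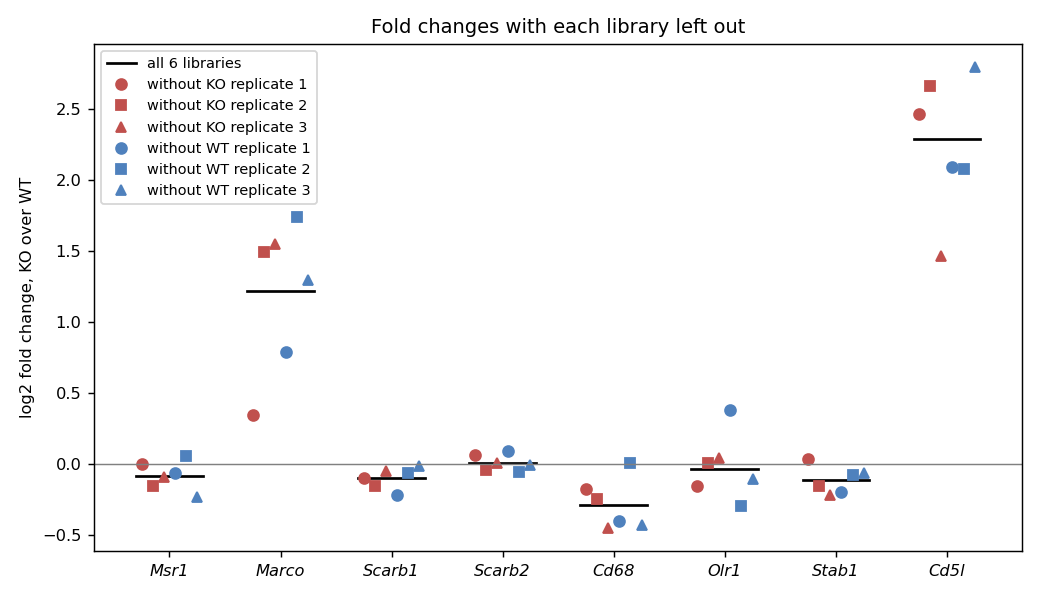
Log2 fold change of KO over WT for each scavenger receptor with all 6 libraries (black line) and with each library left out in turn (symbols). Marco is at 0.35 without KO replicate 1 and Cd5l at 1.46 without KO replicate 3, while Msr1, Scarb2, Cd68, Olr1 and Stab1 move across 0.

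Other scavenger receptors were read from the same fit. Of 20 listed names 19 were in the table and 17 were tested, and 0 passed by edgeR. Of these 17, 2 had an unadjusted p under 0.05 with a higher level in KO (5.23% of all genes) and 1 with a lower level (6.08% of all genes). Cd36, a class B receptor for oxidised lipoprotein and fatty acids, stood at 289.6, 245 and 229 CPM in KO replicates 1 to 3, against 70.4, 85.5 and 118 CPM in WT replicates 1 to 3. The libraries did not overlap, and the adjusted p was 0.101 by edgeR and 4.23e-11 by DESeq2. Fat cells also express Cd36, and the summed white adipocyte markers were at 781 to 1480.5 CPM in KO and 185 to 721 CPM in WT. Their part in the level of Cd36 was not tested.

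The mannose receptor gene Mrc1 averaged 211 ± 27.5 CPM over the KO libraries and 162 ± 25.03 CPM over the WT libraries (SD, n = 3 each), and edgeR gave a log2 fold change of 0.38 (adjusted p = 0.378). Scarf1, an endothelial receptor for acetylated lipoprotein and dying cells, stood at 23.9, 19.6 and 20.05 CPM in KO replicates 1 to 3, against 26.1, 42.1 and 37.9 CPM in WT replicates 1 to 3. All 3 KO libraries were below the WT libraries, with a log2 fold change of -0.74 (SE 0.19). Its adjusted p was 0.176 by edgeR and 0.0147 by DESeq2. Cd163, the haemoglobin scavenger receptor, which shares the cysteine-rich fold with Cd5l, averaged 6.08 ± 2.48 CPM over the KO libraries and 4.14 ± 2.22 CPM over the WT libraries (SD, n = 3 each), and its libraries overlapped. Stab2, the relative of Stab1, averaged 2.77 ± 1.33 CPM over the KO libraries and 1.67 ± 0.357 CPM over the WT libraries (SD, n = 3 each). The median log2 fold change of the 17 was -0.04.

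Genes that handle the cholesterol taken up by these receptors were examined next. Of 14 tested, 0 passed by edgeR, while 1 had an unadjusted p under 0.05 with a higher level in KO and 3 with a lower one, against 5.23% and 6.08% of all tested genes. The median log2 fold change of the 14 was -0.07. Vldlr, the very low density lipoprotein receptor, averaged 11.9 ± 2.22 CPM over the KO libraries and 5.33 ± 0.352 CPM over the WT libraries (SD, n = 3 each), with an adjusted p of 0.102 by edgeR, and DESeq2 called it. The sterol exporter Abcg1 had a log2 fold change of -0.46 (SE 0.16, edgeR's adjusted p = 0.314). The phospholipid transfer protein Pltp had one of -0.54 (SE 0.19, edgeR's adjusted p = 0.319). Of the exon bases of Pltp 19.3% overlap the gene Ctsa, so reads there cannot be assigned. Of the 14 genes 6 had a positive and 8 a negative log2 fold change. Nr1h3, the liver X receptor alpha, stood at 38.1, 50.9 and 74.9 CPM in KO replicates 1 to 3, against 55.0, 58.1 and 67.7 CPM in WT replicates 1 to 3. KO replicate 3 was highest for Nr1h3 and for Cd5l, and KO replicate 1 was the lowest for Nr1h3 and the next highest for Cd5l. The part of Nr1h3 in the level of Cd5l was not tested.

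Lysosomal genes, the setting of Scarb2 and Cd68, gave 0 of 13 past the threshold by edgeR and by DESeq2. The log2 fold change of Ctsl, a cysteine protease, was 0.55 (SE 0.20) and that of Grn, progranulin, was -0.59 (SE 0.21), each with an unadjusted p under 0.05, so that 1 of 13 was higher and 1 lower (5.23% and 6.08% of all tested genes). The lysosomal membrane proteins Lamp1 and Lamp2 had log2 fold changes of -0.11 and -0.16, with overlapping libraries. Of the exon bases 26.8% overlap other genes for Ctsl, 9.31% for Lamp1 and 1.96% for Grn, so reads there cannot be assigned. The median of the 13 was -0.11.

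Cd5l and Marco are known from macrophages of spleen, lymph node, liver and the peritoneum, so 9 genes of macrophages resident in these and other organs were read beside them. They were chosen after the values of Cd5l and Marco were seen and were not tested as a list. Cd209b, a lectin of marginal zone and lymph node macrophages, stood at 25.8 CPM in KO replicate 1, against 0.0512 and 0.0932 CPM in KO replicates 2 and 3 and 0 to 0.121 CPM in WT. Timd4, a receptor for dying cells, stood at 7.52, 1.18 and 1.07 CPM in KO replicates 1 to 3, against 3.21, 3.40 and 3.34 CPM in WT replicates 1 to 3. KO replicate 1 was thus the highest library for Marco, Cd209b and Timd4, and KO replicate 3, the highest for Cd5l, was not high for any of these. Not all genes of the list were high in KO replicate 1, which was the lowest of the 6 libraries for Siglec1, Spic, Gata6 and Lyve1 and the next to lowest for Folr2. The part of such macrophages in the levels of Marco and Cd5l was not tested.

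The other genes of that list had other patterns than Cd5l. Clec4f, a marker of liver macrophages, had 0 counts in all 6 libraries, and Vsig4 had at most 0.364 CPM. Siglec1, a lectin of tissue macrophages that interferon also raises, stood at 70.2, 96.8 and 122 CPM in KO replicates 1 to 3, against 184, 308 and 160 CPM in WT replicates 1 to 3, the opposite order of genotypes to Cd5l. Spic, a transcription factor of iron-recycling macrophages, stood at 5.97, 9.16 and 8.997 CPM in KO replicates 1 to 3, against 10.4, 7.09 and 8.001 CPM in WT replicates 1 to 3. Gata6, a factor of peritoneal macrophages, stood at 28.5, 40.4 and 34.7 CPM in KO replicates 1 to 3, against 33.8, 46.3 and 33.0 CPM in WT replicates 1 to 3. In bulk aorta the level of Gata6 cannot be assigned to macrophages. Lyve1, a hyaluronan receptor of resident macrophages and of lymphatic endothelium, stood at 14.6, 26.9 and 33.9 CPM in KO replicates 1 to 3, against 18.2, 24.8 and 16.4 CPM in WT replicates 1 to 3. Folr2, a folate receptor of resident macrophages, averaged 4.997 ± 2.24 CPM over the KO libraries and 7.45 ± 6.19 CPM over the WT libraries (SD, n = 3 each), but 63.1% of its exon bases overlap the gene Gm10602, so reads there cannot be assigned. The summed level of 7 lymphoid organ genes, also chosen after the data were seen, was 12.8 to 22.3 CPM in KO and 9.34 to 18.8 CPM in WT. KO replicate 3 had the lowest sum of the KO libraries, yet 1 gene of the list, the chemokine gene Ccl19, had 66 counts (3.08 CPM) there, against 2 and 1 counts in KO replicates 1 and 2 and 0 to 3 counts in WT. The annotation holds another copy of Ccl19, so this count is uncertain.

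**Figure D5:**
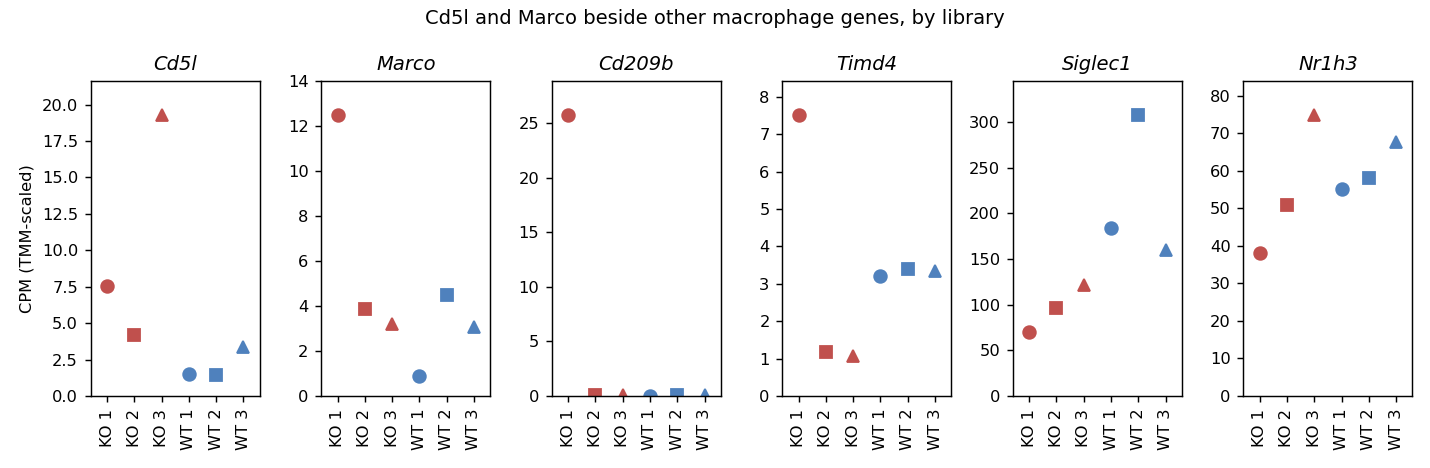
Level in CPM of Cd5l, Marco and 4 other genes in each library, KO in red and WT in blue. KO replicate 1 is highest for Marco, Cd209b and Timd4, KO replicate 3 for Cd5l, and all WT libraries lie above all KO libraries for Siglec1.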

How the data were processed

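Total RNA of mouse abdominal aorta was selected on poly-T beads, per the labels' protocols. The authors deposited raw whole-number counts per gene for 6 libraries, 3 KO and 3 WT. The submitters' processing notes name HISAT2 2.0.5, featureCounts 1.5.0-p3 and the build GRCm38. The sources used here do not give the strand setting, the annotation release or how multiply matching reads were handled.

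Groups came from sample titles. These counts were tested with edgeR 4.0.16 under R 4.3.3 (filterByExpr, TMM, quasi-likelihood test, Benjamini-Hochberg over 16237 genes). SE was the log2 fold change divided by the square root of F, and intervals used the t distribution. DESeq2 1.42.0, limma-voom (limma 3.58.1), other scalings and filters, a replicate block and left-out libraries were alternatives. Log2 CPM used a prior count of 2. Pairs of libraries gave a chi-square per degree of freedom of 25.6 to 81, so none was a repeat. Positions and exon lengths came from GENCODE release 21 (54495 of 54532 identifiers), promoters from RefSeq. Intervals and limits from counts cover counting error only.

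The members and lists were chosen with earlier results of these data known. The genes named were the members, up to 4 of each other list by smallest unadjusted p, and for each member the 3 genes of nearest pattern, not all of which are reported here. Lists of genes of other organs' macrophages and of lymphoid organs, and Cd163, Stab2, Nr1h3, Lamp1 and Lamp2, were chosen after values were seen. Figures were drawn with matplotlib 3.10.9.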

Additional observations from a re-analysis of the deposited data

How the results depend on the processing

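The number of genes past the threshold was 2 with edgeR, 644 without the filter on low counts, 460 with DESeq2, 0 with limma-voom, 0 with the replicate block and 0 to 155 with libraries left out. Of the 8 members 0 passed, except that 1, Cd5l, passed without the filter. At an unadjusted p under 0.05 there was 1 member with edgeR (11.3% of all tested genes) and 2 without the filter (8.88%). There was 1 with DESeq2 (6.28%), with limma-voom (11.4%), with the replicate block (9.89%) and with each other scaling or filter (10.9 to 11.8%). With libraries left out there were 1 to 2, where 8.28 to 13.1% of all tested genes had such a p. The cause was not tested. Cd5l (1.27 to 2.79 with libraries left out, 2.13 to 2.30 otherwise) and Marco (0.35 to 2.08, 1.05 to 1.36) kept a positive log2 fold change in all alternatives. With libraries left out this sign was largely fixed in advance for Cd5l, whose KO and WT libraries did not overlap. Each of the other members changed sign in at least 1 alternative, and of these Olr1 ranged the furthest with libraries left out. With libraries left out Msr1 ranged from -0.23 to 0.053, Scarb2 from -0.057 to 0.093, Cd68 from -0.45 to 0.0058, Olr1 from -0.29 to 0.38 and Stab1 from -0.22 to 0.032. Olr1 was at 0.036 with limma-voom and 0.050 with the replicate block. Relative to the macrophage markers Msr1 was at 0.10, Scarb1 at 0.077, Olr1 at 0.23 and Stab1 at 0.046. Replicate numbers are shared between genotypes, but deviations of same-numbered libraries correlated at -0.10, -0.06 and -0.12, so they were not taken as pairs. Under the replicate block Cd5l had a log2 fold change of 2.14 (adjusted p = 0.221, edgeR). Counts were lowest for Marco (16 to 218 per library) and Cd5l (24 to 414), but libraries of 1 genotype differed by more than counting error. The 95% Poisson intervals of Cd5l were 17.5 to 21.3 CPM in KO replicate 3 and 3.34 to 5.21 CPM in KO replicate 2.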

Other observations

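The tested genes whose pattern over the 6 libraries was nearest to each member were found among 14895 genes by the root mean square difference of centred log2 CPM, as a description. For Cd68 they were Lgmn, a lysosomal protease (0.0667), Cd48, a leukocyte surface protein (0.0727), and the cytokine gene Tnf (0.0740). For Msr1 the nearest was the amino acid transporter Slc7a7 (0.0395), and for Scarb2 the kinase gene Wnk1 (0.0244). Of the members, Cd5l and Marco differed most from their nearest genes, but their own SDs over the 6 libraries were also the largest. The nearest to Cd5l, Stum, differed by 0.483 against an SD of 1.39 for Cd5l itself over the 6 libraries, and the nearest to Marco, Mir145a, by 0.413 against an SD of 1.18 for Marco.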
